A study of Mus musculus with 4 samples.

Results

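The isograft of this series held 620 non-dividing macrophages whose droplets carried at least 3 unique molecular identifiers (UMIs) of Spp1 and Gpnmb in sum and none of the resident-macrophage genes Folr2, Lyve1 and Cbr2. They made up 620 of the 1907 non-dividing macrophages of that library, of 2244 macrophages and 11386 kept barcodes there and of 30895 kept barcodes in all 4 libraries. A droplet counted as a macrophage with at least 3 UMIs of Csf1r, Fcgr1 and Cd68, at least 10 UMIs of C1qa, C1qb and C1qc, at most 1 UMI of Cd3d, Cd3e and Cd3g and no Flt3 UMI, and as non-dividing with at most 1 UMI of Mki67 and Top2a. The cells were thus chosen by their UMI counts of 17 genes, and the levels of those genes in the isograft are given as a description only.

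Transplanted mouse hearts were collected on day 5 after grafting and profiled by droplet single-cell RNA sequencing of 3' ends. The allogeneic group had 3 libraries, replicates 1, 2 and 3, taken from hearts grafted across a genetic difference, and the isogeneic group had 1 library, replicate 2, from a heart grafted between genetically matched mice. The grafts were dissociated with enzymes before loading. Mouse strain, genotype, age and any drug or cell sort are not given in the sources used here, nor whether each replicate was its own animal. The p-values therefore speak to the spread among these libraries, part of which may be technical. The series is titled for the inhibitory receptor VISTA, encoded by Vsir, and the labels name no treatment aimed at it.

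Osteopontin, the product of Spp1, is a secreted phosphoprotein that binds integrins and the hyaluronan receptor CD44, and it is made by macrophages at sites of tissue repair and fibrosis. Gpnmb encodes a transmembrane glycoprotein of late endosomes and lysosomes, which macrophages induce when their lysosomes are loaded. Trem2 encodes a lipid-sensing receptor that signals through Tyrobp. The 3 genes are used together to mark lipid-associated or scar-associated macrophages, which also express fatty acid binding proteins, cathepsins and Apoe, and in infarcted and failing hearts are held to come mainly from blood monocytes. Folr2, Lyve1 and Cbr2 mark macrophages that reside in the heart before injury.

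Spp1 lies on chromosome 5 (104435118 to 104441050, plus strand) and Gpnmb on chromosome 6 (49036546 to 49070929, plus strand) of the mouse build GRCm38 in the GENCODE M21 annotation. Their promoters are shown because these genes define the cells. Each sequence runs from 250 bases before to 30 bases after the RefSeq transcription start (GRCm38.p6, plus strand), with AP-1 motifs (TGACTCA or TGAGTCA) and the core motif of RUNX factors (AACCACA or TGTGGTT) in capitals.
Spp1 promoter, chr5:104434861-104435140: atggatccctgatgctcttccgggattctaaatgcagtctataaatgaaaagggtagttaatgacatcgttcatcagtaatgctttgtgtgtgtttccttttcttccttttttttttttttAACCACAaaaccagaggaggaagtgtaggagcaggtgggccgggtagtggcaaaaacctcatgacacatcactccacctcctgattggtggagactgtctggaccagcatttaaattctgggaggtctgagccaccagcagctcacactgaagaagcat
Gpnmb promoter, chr6:49036268-49036547: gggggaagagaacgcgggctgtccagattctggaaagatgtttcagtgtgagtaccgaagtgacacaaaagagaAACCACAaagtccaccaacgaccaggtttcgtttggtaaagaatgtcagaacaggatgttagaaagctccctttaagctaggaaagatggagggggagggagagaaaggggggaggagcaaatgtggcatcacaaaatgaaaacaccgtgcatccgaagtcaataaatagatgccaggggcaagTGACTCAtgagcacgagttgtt
Each window held 1 RUNX core, which begins 129 bases before the Spp1 start and 176 bases before the Gpnmb start of RefSeq. The Gpnmb window held 1 AP-1 motif just after its RefSeq start. Both RefSeq starts lie before the GENCODE starts given above, and the AP-1 motif lies before the GENCODE start of Gpnmb. Among 27025 mouse promoter windows of the same length, 5.00% held the RUNX core, 4.89% the AP-1 motif and 0.292% both, searched on both strands. Neither window held an E-box of the MiT/TFE family (CACGTG or CATGTG, on both strands), which 19.5% of the windows did. The motifs are matches of letters, not measured binding sites.

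The data go against the label of a Spp1, Gpnmb and Trem2 population set apart from its neighbours, so the cells are called Spp1/Gpnmb-gated macrophages here. Of the 620 cells, 390 had no Gpnmb UMI, 4 had no Spp1 UMI and 226 had both, and the gate rested on 22132 Spp1 UMIs against 970 Gpnmb UMIs. A UMI of Spp1 was found in 99.4% of gated cells, 77.9% of the other non-dividing macrophages and 17.5% of cells with endothelial markers, at median depths of 5865, 6090 and 4099 UMIs. After thinning each cell to 2000 UMIs these shares were 92.6%, 65.2% and 7.89%. Gpnmb was seen in 37.1% of gated cells, 25.8% of the others and 0.493% of endothelial-marker cells, or 22.6%, 13.7% and 0% after thinning, where the 95% Wilson interval for endothelial-marker cells reaches 0.548%. For Trem2 the shares were 97.7%, 97.4% and 4.80%, and after thinning 83.4%, 86.1% and 2.01%, so Trem2 was as widespread outside the gate as inside it. At the threshold itself, with all cells in, the 45 cells with 3 UMIs of Spp1 and Gpnmb, just inside the gate, had Fabp5 at 1097 library-scaled counts (CPM) and Trem2 at 918 CPM. The 59 cells with 2 UMIs, just outside it, had 931 and 1076 CPM. CPM values are the UMIs of a gene summed over a class of 1 library, divided by all UMIs of that class and scaled to the usual unit of CPM, and the intervals given with them are exact Poisson intervals that cover counting error only.

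Part of the gated droplets also held fibroblast transcripts. The 8 fibroblast markers Col1a1, Col1a2, Col3a1, Dcn, Lum, Pdgfra, Postn and Dpt took 0.3% or more of the UMIs in 159 of the 620 gated isograft cells (25.6%) and in 265 of its other non-dividing macrophages (20.6%). The same limit marked 2, 0 and 65 gated cells of allografts 1, 2 and 3, so that 47.8% of the gated cells of allograft 3 were affected. In the isograft the marked droplets were deeper, with a median of 10713 UMIs against 5222 in the unmarked ones, and the highest Scrublet doublet scores fell on 71.1% of the marked gated cells against 3.47% of the unmarked. Allograft 3 did not show this, with the highest scores on 6.15% of the marked against 5.63% of the unmarked gated cells and median depths of 7318 against 10811 UMIs. Only 11 gated isograft cells lay between 0.2% and 0.4%, so few cells sit near the limit. Allograft 3 stood apart from allografts 1 and 2 in this way throughout. Each leading count is given with and without these droplets, a setting chosen after seeing the data, and CPM values are without them unless all cells are named.

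**Figure D1:**
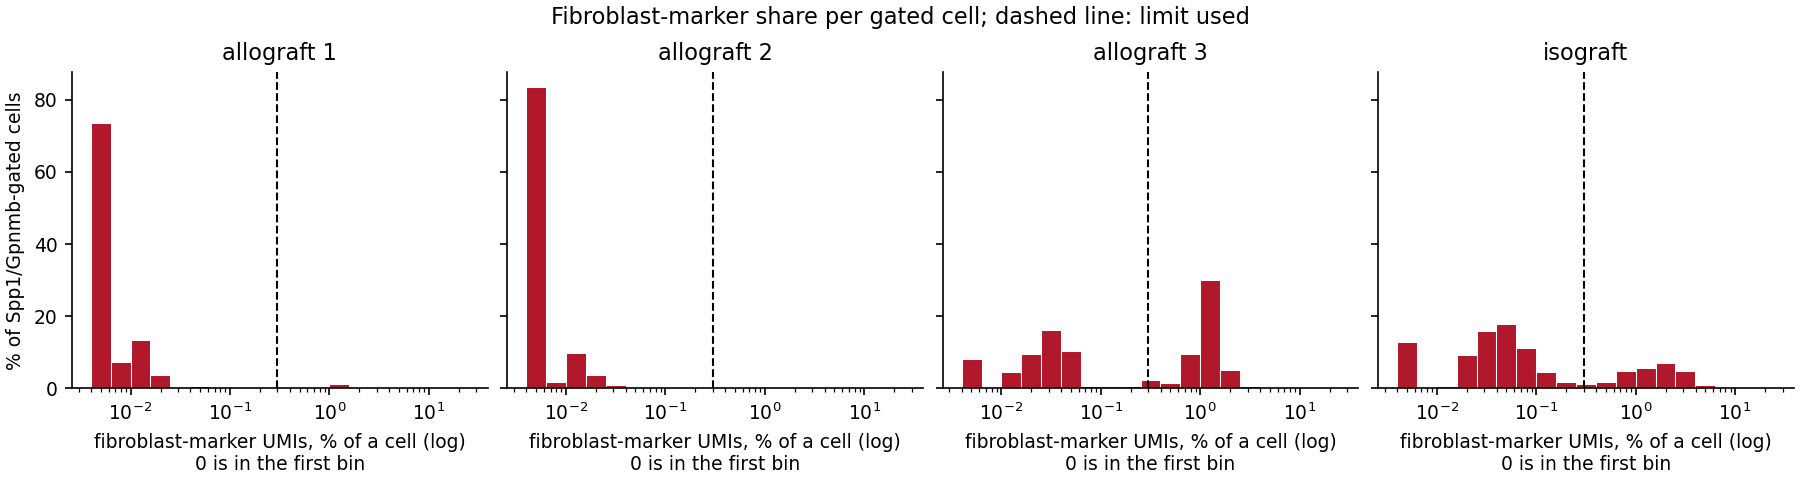
Distribution of the share of UMIs from 8 fibroblast markers over the Spp1/Gpnmb-gated cells of each library (log axis, cells at 0 in the first bin, bars in percent of gated cells). A second group of cells lies right of the dashed 0.3% limit in allograft 3 (65 of 136 cells) and the isograft (159 of 620 cells), and 2 and 0 cells do so in allografts 1 and 2.

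Sequencing gave 51054446, 63434265 and 51463909 UMIs in allografts 1, 2 and 3 and 100038951 in the isograft. Gated cells had median depths of 15718, 12056.5 and 9122 UMIs in the allografts, against 5865 in the isograft. The other non-dividing macrophages had 11692, 9585 and 10359 UMIs there, against 6090 in the isograft. Pairs of libraries shared 14 to 31 barcodes, none of them a gated cell in both. Fewer cells of a type in a suspension and fewer cells in the heart cannot be told apart.

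Most isograft macrophages reached 3 UMIs of Spp1 and Gpnmb in sum, nearly all of them Spp1 UMIs in the gated cells, with or without resident genes. At least 3 UMIs of the pair were found in 74.8% of non-dividing isograft macrophages without a Folr2, Lyve1 or Cbr2 UMI, in 69.9% of those with one and in 86.9% of the dividing macrophages. With every cell thinned to 2000 UMIs and the fibroblast-marker-rich droplets left out, 82.6% of the cells without and 72.8% of those with a resident gene kept at least 1 UMI of the pair. In allografts 1, 2 and 3 the gate was reached by 21.4%, 18.9% and 136 of 340 of the cells without a resident gene, by 19.8%, 18.6% and 55.0% of the cells with one and by 30.5%, 32.0% and 47.1% of dividing cells. The other 1287 non-dividing macrophages of the isograft were thus a mixture, with 754 cells that carried both gene sets, 324 with resident genes only and 209 with neither. Without the fibroblast-marker-rich droplets there were 461 gated cells, 571 with both sets, 278 with resident genes only, 173 with neither and 227 dividing cells.

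Gated isograft cells did not have more Spp1 per UMI than cells with both gene sets. Spp1 stood at 5751 CPM (95% interval 5661 to 5843) in gated cells, 7489 CPM (7408 to 7570) in cells with both sets, 101 CPM in cells with resident genes only, 192 CPM in cells with neither and 5919 CPM in dividing cells. Gpnmb was at 267 CPM (248 to 287) in gated cells and 256 CPM (241 to 271) in cells with both sets, intervals that overlap, and at 86.7 CPM in dividing cells. Trem2 was at 1494, 1845, 1737, 1300 and 964 CPM in gated cells, cells with both sets, cells with resident genes only, cells with neither and dividing cells. The gated cells thus ranked below 2 of the other 3 non-dividing classes for the marker the gate did not use. Fabp5, which encodes a fatty acid carrier, ranked the non-dividing classes as Spp1 did. It was at 3355 CPM in gated cells, 3516 in cells with both sets, 569 with resident genes only and 688 with neither. In dividing cells, where Spp1 was no lower than in gated cells, Fabp5 was at 1714 CPM. It is not particular to macrophages, since 81.5% of endothelial-marker cells also had a Fabp5 UMI, against 73.7% of all gated cells.

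**Figure D2:**
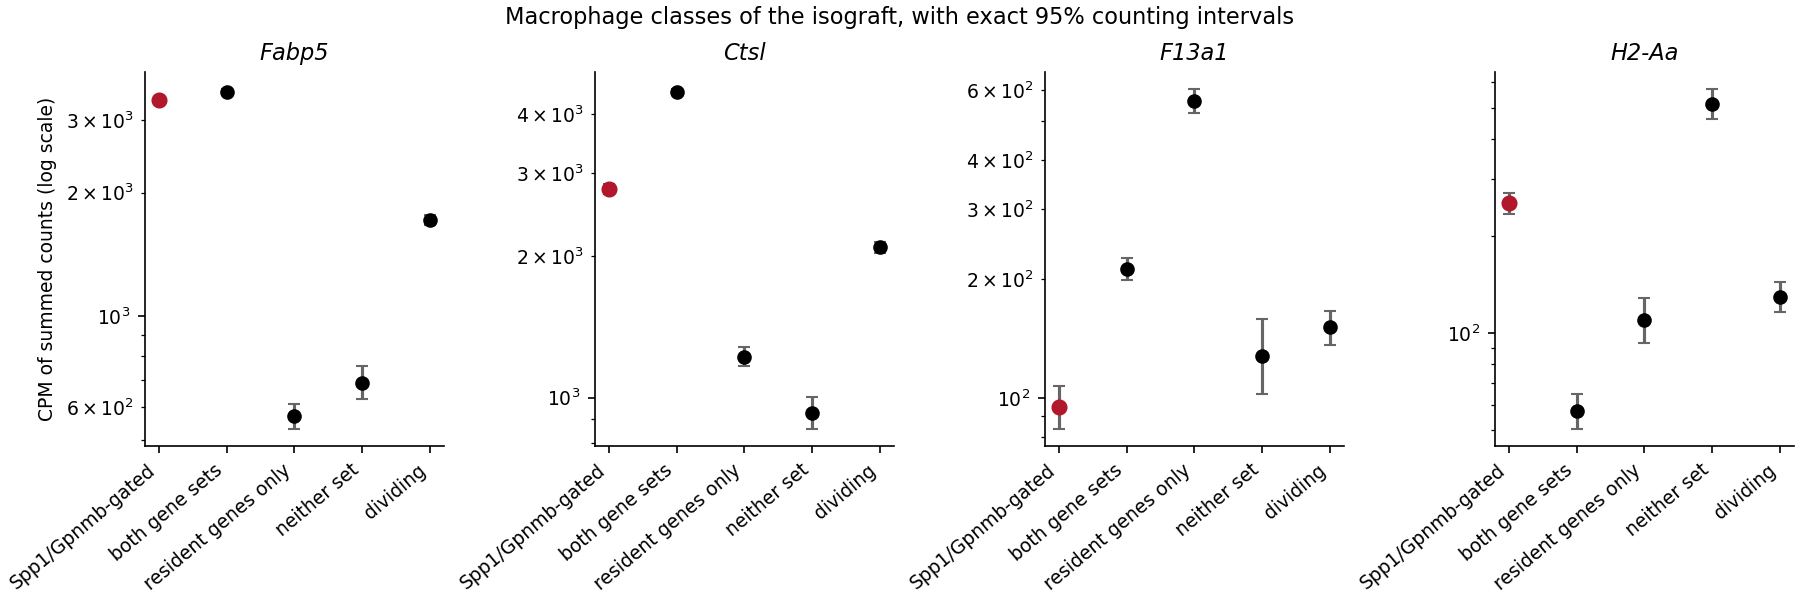
CPM of Fabp5, Ctsl, F13a1 and H2-Aa in the 5 macrophage classes of the isograft (log axes, points with exact 95% counting intervals, gated cells in red at the left of each panel, fibroblast-marker-rich droplets left out). Fabp5 is near 3355 CPM in gated cells and 3516 CPM in cells with both gene sets and under 700 CPM in cells with resident genes only or with neither, while H2-Aa is highest in cells with neither set at 514 CPM.

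Against all other non-dividing macrophages of the isograft, the gated cells differed in few genes. Of 5913 genes at 20 CPM or more in either class, 7 were over 2-fold higher (0.118%) and 16 over 2-fold lower (0.271%) in gated cells. Without the fibroblast-marker-rich droplets it was 18 higher (0.328%) and 25 lower (0.456%) of 5480. The serum amyloid gene Saa3 was at 98.7 CPM in gated cells and 27.3 CPM in the others, and the invariant chain gene Cd74 at 1308 against 635 CPM. The transglutaminase gene F13a1 was at 95 against 281 CPM, the scavenger receptor gene Stab1 at 174 against 334 CPM, and Ccl8, a monocyte-attracting chemokine, at 1019 against 2204 CPM. Of the genes with the highest ratios in all cells, Aldh1a2, Il1r1 and Pdgfra were high with the fibroblast-marker-rich droplets in, at 101, 64.8 and 53.1 CPM in gated cells, and at 5.54, 7.02 and 1.48 CPM without them. Since the other macrophages mix 3 classes, the gated cells are next set against each class in turn. These are single-library contrasts on which the gate itself acts, and they carry no test.

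Set against the 571 cells with both gene sets, gated cells were higher in antigen presentation genes and in a minority of the cytokine genes, and no lipid-associated gene was over 2-fold apart. Of 5413 genes, 28 were over 2-fold higher (0.517%) and 13 over 2-fold lower (0.24%). With all cells in, these were 15 (0.256%) and 10 (0.171%) of 5859. Of 6 measured genes for MHC class II, which presents peptides to CD4+ T cells, 4 were over 2-fold higher, with a median log2 ratio of 1.71 against 0.01 over all genes, and 4 of 6 were with all cells in. H2-Aa was at 253 CPM in gated cells against 57.3 CPM, H2-Eb1 at 273 against 72.7 CPM and Cd74 at 1308 against 386 CPM. Of 12 inflammatory genes 4 were over 2-fold higher, Il1a, Clec4e, Il1b at 99.8 against 42.1 CPM and Saa3 at 98.7 against 34.1 CPM, and with all cells in 3 of 12 were, Il1b, Saa3 and Cxcl3. Of 16 growth factor and resolution genes 4 were, namely Areg, an EGF receptor ligand, at 51.4 against 17.3 CPM, Gdf15, a stress-induced cytokine, at 475 against 226 CPM, Osm at 64.3 against 25.9 CPM and Vegfa at 27.7 against 11.1 CPM. Of 15 such genes Areg and Osm were with all cells in. None of 24 lipid-associated genes was over 2-fold apart, and their median log2 ratio was -0.23. The cysteine protease gene Ctsl was at 2775 CPM in gated cells and 4456 CPM in cells with both sets. F13a1 was at 95 against 212 CPM. Cells with both sets were deeper, with a median of 6614 UMIs against 5222 in gated cells. The 2 classes are told apart by raw UMIs of Folr2, Lyve1 and Cbr2, which are missed more often at lower depth. The part of depth in this contrast was not tested.

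Set against the 278 cells with resident genes only, the contrast followed the gate. Of 5891 genes, 83 were over 2-fold higher (1.41%) and 232 over 2-fold lower (3.94%) in gated cells, or 109 (1.73%) and 164 (2.61%) of 6285 with all cells in. Of 20 resident cardiac macrophage genes outside the gate, 15 were over 2-fold lower and none higher, with a median log2 ratio of -1.47 against -0.08 over all genes. Cd163, a haemoglobin scavenger receptor, was at 2.96 CPM in gated cells against 73.8 CPM, and Gas6, a bridging ligand for apoptotic cells, at 106 against 388 CPM. Ccl8 was at 1019 against 4873 CPM and Ltc4s, the leukotriene C4 synthase, at 30.3 against 186 CPM. Of 24 lipid-associated genes, 5 were over 2-fold higher and 1 lower, with Fabp5 at 3355 against 569 CPM and Atp6v0d2, a subunit of the proton pump of lysosomes, at 53.2 against 13.9 CPM. Of the resident genes 12 of 18 were over 2-fold lower with all cells in, and of 24 lipid-associated genes Fabp5 and Atp6v0d2 were higher and none lower. Saa3 was at 98.7 against 4.87 CPM and Hilpda, a lipid droplet protein gene, at 247 against 55.7 CPM.

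The 173 cells with neither set shared the absence of resident genes with the gated cells and lacked the Spp1 and Gpnmb counts. They were shallower, with a median of 3265 UMIs against 5222 in gated cells. The part of this depth gap in the contrast was not tested. Of 5873 genes, 68 were over 2-fold higher (1.16%) and 199 over 2-fold lower (3.39%) in gated cells, or 81 (1.27%) and 169 (2.65%) of 6388 with all cells in. Of 24 lipid-associated genes 5 were over 2-fold higher and none lower, with Fabp5 at 3355 against 688 CPM, Lgals3, which encodes galectin 3, at 3108 against 1269 CPM, Ctsl at 2775 against 930 CPM and the elastase gene Mmp12 at 71.0 against 20.6 CPM. Arg1, which encodes arginase 1, was at 94.6 against 20.6 CPM. Class II genes ran the other way from the previous contrasts, with H2-Aa at 253 against 514 CPM and Cd74 at 1308 against 2320 CPM. Of 6 class II genes 1 was over 2-fold lower, or 4 of 6 with all cells in. Of 16 interferon response genes 4 were over 2-fold lower and none higher, or 3 of 17 with all cells in. The lipid-associated genes with all cells in were 5 higher and 1 lower (Fabp4) of 24. Ccl21a and Igfbp5 had the highest ratios here, at 215 against 5.89 CPM and 54.7 against 4.42 CPM. With all cells in, Ccl21a was at 118 against 4.04 CPM. How many droplets carried these 2 transcripts, and whether RNA of other cells contributed, was not tested. Of 7 measured endothelial markers 3 were over 2-fold lower in gated cells, or 6 of 7 with all cells in. In this order of classes, gated cells lay between cells with neither set and cells with both sets in H2-Aa and Cd74.

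Set against the 227 dividing macrophages, gated cells were lower in cell cycle genes and held more Apoe. Of 5898 genes, 90 were over 2-fold higher (1.53%) and 393 over 2-fold lower (6.66%), or 42 (0.675%) and 267 (4.29%) of 6218 with all cells in. Of 19 cell cycle genes 17 were over 2-fold lower, or 18 with all cells in, as the gate on Mki67 and Top2a selects. Apoe, which encodes apolipoprotein E, was at 15361 CPM in gated cells and 3306 CPM in dividing cells, and Gdf15 at 475 against 84.1 CPM.

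The gated isograft cells were not uniform. With the 461 cells split by their own Spp1 and Gpnmb UMIs, class II genes were lower where the pair was more abundant. H2-Aa was at 879, 260 and 85.6 CPM in the 87 cells with 3 to 5 UMIs, the 155 cells with 6 to 15 and the 219 cells with 16 or more, and Cd74 at 3567, 1477 and 631 CPM. Ctsl ran the other way, at 1319, 1548 and 3795 CPM, as did Fabp5, at 1887, 2666 and 4097 CPM. Deeper cells reach higher UMI numbers, and the 3 groups had median depths of 4039, 4535 and 5995 UMIs. The log2 ratio of the highest over the lowest group for H2-Aa was -3.34 in the isograft and -0.07, -0.27 and -0.68 in allografts 1, 2 and 3. For Ctsl it was 1.52 in the isograft and 1.08, 1.23 and 1.64 in the allografts. For Fabp5 it was 1.12 in the isograft and 1.12, 1.51 and 0.02 in the allografts. Other lipid-associated genes varied in the isograft. The ratio was 2.45 for Mmp12 and 1.46 for Lgals3, but 0.31 for Pld3, 0.21 for Cd63, 0.17 for Trem2 and -0.73 for Apoe.

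Gpnmb split the gated isograft cells further. The 294 cells with no Gpnmb UMI, the 44 with 1 and the 123 with 2 or more had median depths of 5200.5, 4568 and 5432 UMIs. Fabp5 was at 1094, 4047 and 8110 CPM in these groups, Trem2 at 1166, 1760 and 2133 CPM and Apoe at 10447, 21787 and 24186 CPM. The lysosomal proteases followed, with Ctsl at 1487, 2658 and 5641 CPM, Ctsd at 2201, 4207 and 6068 CPM and Ctsk at 4.72, 12.7 and 50.5 CPM. Ccr2, the receptor by which monocytes enter tissue, was at 111, 16.9 and 6.48 CPM, and Cd74 at 1781, 827 and 417 CPM. Other genes of the lipid-associated list were closer between the groups, with log2 ratios of 2 or more over 0 Gpnmb UMIs of 0.23 for Cd9, 0.28 for Mmp12 and 0.46 for Plin2. The cells that pass the gate on Spp1 alone thus carried less Fabp5, Trem2, Apoe, Ctsl, Ctsd and Ctsk and more Ccr2 and Cd74 than the cells with Gpnmb UMIs.

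The allografts played no part in choosing the isograft cells, but their gated cells passed the same gate. Those without Gpnmb thus held at least 3 Spp1 UMIs, while those with Gpnmb could hold fewer. The log2 Spp1 ratio of cells with 2 or more Gpnmb UMIs over cells with none was 0.43 in the isograft. In allografts 1, 2 and 3 it was -0.69, -0.58 and -0.73. These splits are therefore not independent of the gate. The allografts showed the same directions for some of the genes above and not for others. The log2 ratio of cells with 2 or more Gpnmb UMIs over cells with none was 1.31, 1.76 and 1.56 for Fabp5 in allografts 1, 2 and 3 and 2.89 in the isograft. For Ctsk it was 1.73, 1.48 and 2.41 in the allografts and 3.17 in the isograft. Pld3, a lysosomal nuclease gene, had 1.08, 1.16 and 0.99 in the allografts and 1.57 in the isograft. The values for Ccr2 were -1.02, -0.94 and -2.0 in the allografts and -3.90 in the isograft. Cd74 stood at 0.13, 0.07 and -0.42 in the allografts against -2.09 in the isograft, and Apoe at 3.08, -0.73 and 1.67 in the allografts. The allograft groups were small, with 85, 91 and 12 cells at 2 or more Gpnmb UMIs and 62, 108 and 50 at none, and no test was made of these splits.

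**Figure D3:**
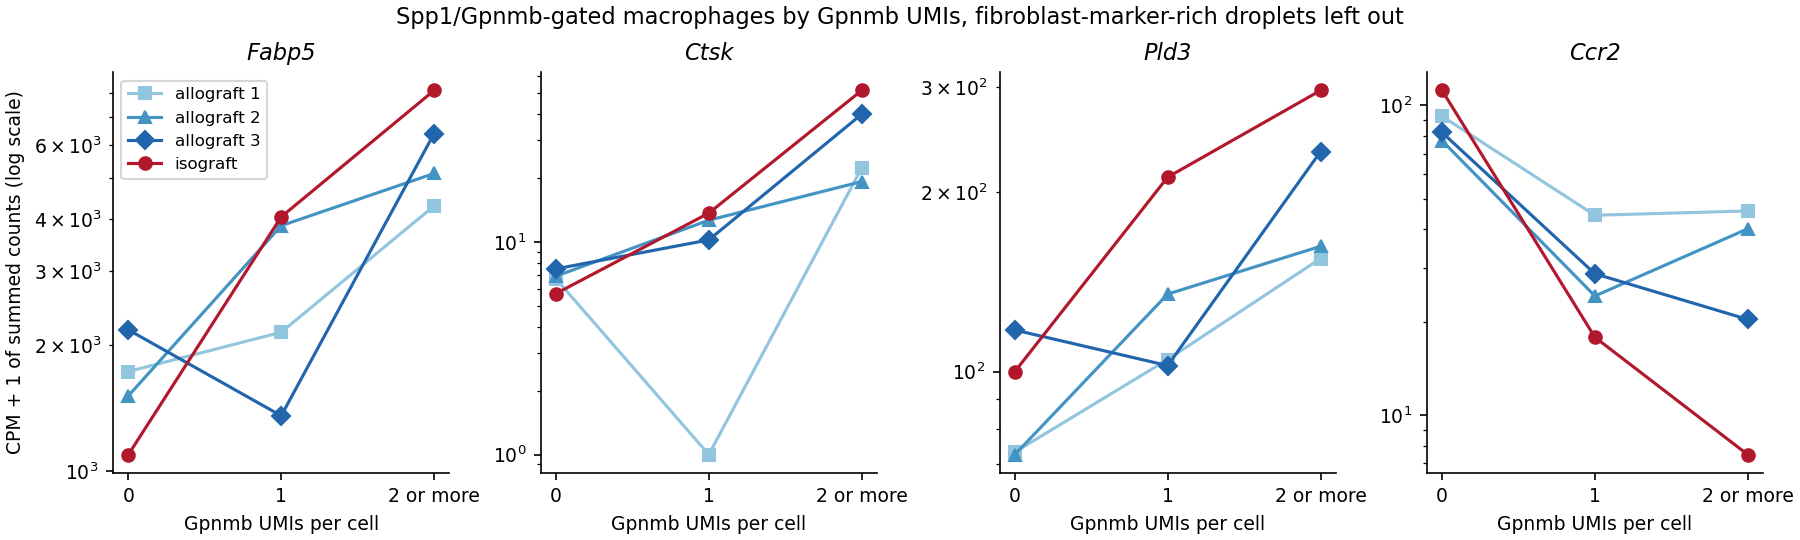
CPM + 1 (log axes) of Fabp5, Ctsk, Pld3 and Ccr2 in Spp1/Gpnmb-gated cells with 0, 1 and 2 or more Gpnmb UMIs, 1 line per library, fibroblast-marker-rich droplets left out. In the isograft Fabp5 is at 1094, 4047 and 8110 CPM and Ccr2 at 111, 16.9 and 6.48 CPM, and from 0 to 2 or more UMIs the first 3 genes are higher and Ccr2 is lower in every library.

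The same gate took 163, 224 and 136 cells from allografts 1, 2 and 3, which was 19.4%, 16.9% and 28.9% of their non-dividing macrophages, against 32.5% in the isograft (95% Wilson interval 30.4 to 34.6). All allografts lay below the isograft, with allograft 3 nearest to it. The allogeneic mean of 21.7% ± 6.34 (SD, n = 3) was 10.8 points below the isograft, and the exact two-sided permutation test gave p = 0.25, which is the smallest value that 3 libraries against 1 can reach. Without the fibroblast-marker-rich droplets the shares were 19.3%, 16.9% and 21.6% against 31.1%, and with the gate read on cells thinned to 2000 UMIs 6.56%, 6.96% and 12.7% against 34.4%.

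In the allografts, gated cells were compared with the other non-dividing macrophages of the same library by edgeR, with the library as a block. This asks which genes go with the gate in libraries that played no part in choosing the isograft cells. With all cells in, 70 of 11340 genes rose (0.617%) and 22 fell (0.194%) outside the gate genes. Without the fibroblast-marker-rich droplets, 119 of 10544 rose (1.13%) and 49 fell (0.465%), and 88 genes were called both ways. The count with all cells was 33, 32 and 327 without allograft 1, 2 and 3, and 179, 22 and 335 without the fibroblast-marker-rich droplets. The allograft others were mostly cells with neither set (598, 964 and 204 cells), unlike those of the isograft.

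Lipid-associated genes rose together in the allografts. Of 25 such genes 15 rose and none fell with all cells in, with a median log2 change of 0.69 against 0.01 over all genes. Without the fibroblast-marker-rich droplets 16 rose and none fell, with a median of 0.73. Leaving out allograft 1, 2 or 3 gave 11, 12 and 18 with all cells in and 19, 13 and 18 without those droplets. The list holds genes known to go with Spp1 and Gpnmb and was drawn up with results of these data known. The same contrast in the isograft, which carries no test, did not show this rise. None of 24 lipid-associated genes was over 2-fold apart there in either setting. With all cells in, 3 of 24 had a positive log2 ratio, and the median was -0.14. Without the fibroblast-marker-rich droplets 7 of 24 did, and the median was -0.08.

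Markers of other cells were also read in both classes. At least 3 UMIs of neutrophil markers were found in 27.6%, 20.1% and 59.6% of gated cells of allografts 1, 2 and 3, against 16.3%, 8.51% and 29.9% of the others. Summed with all cells in, these markers stood at 132, 218 and 1070 CPM in gated cells against 156, 128 and 781 CPM in the others, and S100a8 was the only 1 of 5 tested that rose, by 0.77 on the log2 scale. The defining neutrophil genes were near 0 in gated cells, with 0, 1 and 2 UMIs of Ly6g and 1, 0 and 3 UMIs of Cxcr2. For T and NK cell markers the shares with at least 3 UMIs were 11.0%, 12.5% and 26.5% of gated cells against 12.1%, 5.25% and 8.06% of the others. Their sums were 64.8, 107 and 145 CPM in gated cells against 100, 89.2 and 42.8 CPM in the others, and none of 5 tested passed in edgeR. Their part in the result was not tested.

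Fabp5 showed it most clearly. It was at 3090, 3260 and 2591 CPM in gated cells of allografts 1, 2 and 3, against 987, 1028 and 757 CPM in the others. Every gated value lay above every other value, and the log2 change was 1.75 (SE 0.0669, edgeR adjusted p = 9.5e-08). Trem2 was at 375, 326 and 464 CPM in gated cells and 238, 206 and 279 CPM in the others. Trem2 was higher in 3 of 3 libraries, at a log2 change of 0.73 (SE 0.0631, edgeR adjusted p = 0.000101), with no overlap between the classes.

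Other members of the list moved by more from lower levels. Mmp12 was at 28.7, 57.9 and 31.3 CPM in gated cells and 8.34, 13 and 8.79 CPM in the others, a log2 change of 2.03 (SE 0.145, edgeR adjusted p = 2.9e-05). Syngr1, a vesicle protein gene, was at 75.9, 77.1 and 119 CPM against 20.7, 17.7 and 50.5 CPM, a log2 change of 1.85 (SE 0.135). Neither gene's classes overlapped. Atp6v0d2 rose by 3.1 (SE 0.297), the tetraspanin gene Cd63 by 1.16 (SE 0.0794) and Ctsl by 0.92 (SE 0.0722), all on the log2 scale. Apoe rose by 1.29 (SE 0.165, edgeR adjusted p = 0.00143), but its level differed more between libraries than between classes, with 1115, 2553 and 6567 CPM in gated cells and 482, 682 and 4364 CPM in the others. Lpl and Fabp4 did not pass, at log2 changes of 0.47 and -0.23.

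**Figure D4:**
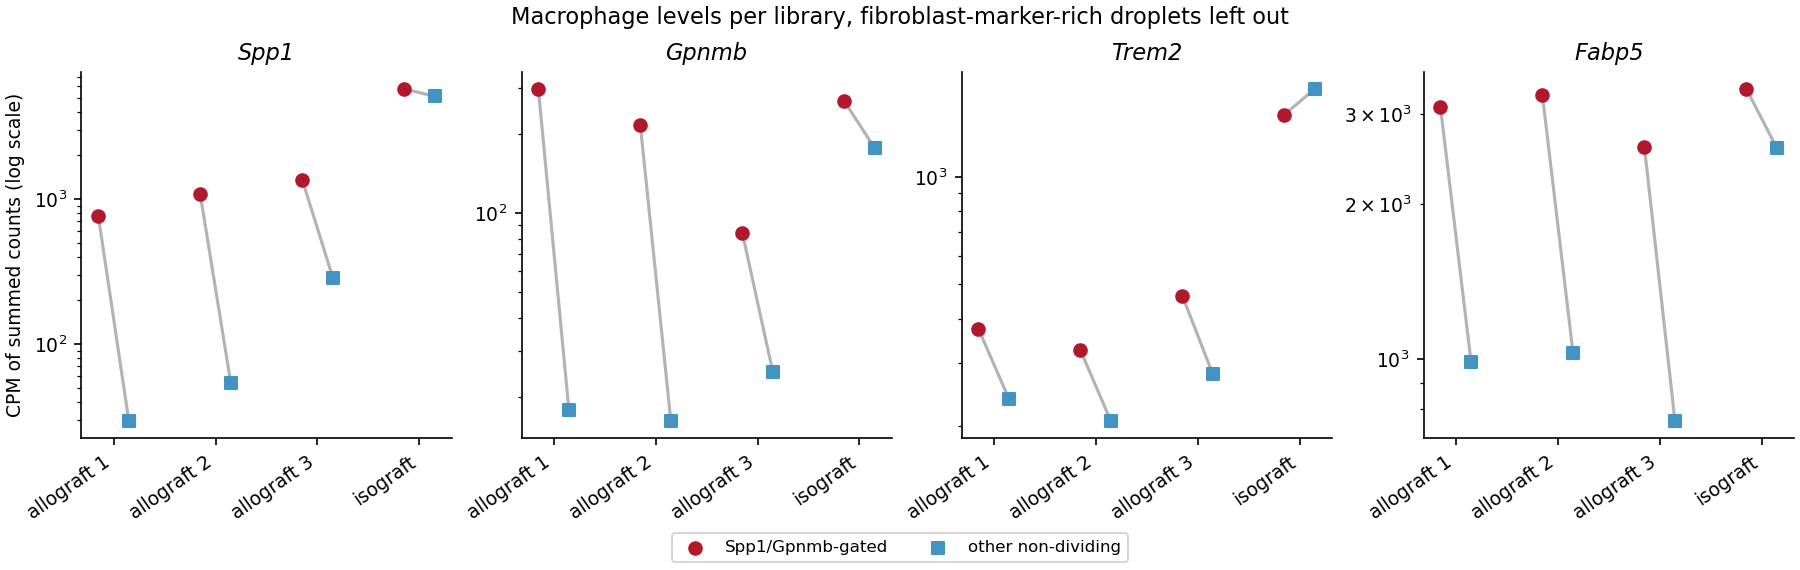
CPM (log axes) of Spp1, Gpnmb, Trem2 and Fabp5 in Spp1/Gpnmb-gated cells (red circles, left) and the other non-dividing macrophages (blue squares, right) of each library, fibroblast-marker-rich droplets left out, lines joining the classes of 1 library. Trem2 is higher in the gated cells of every allograft, for example 375 against 238 CPM in allograft 1, and lower in those of the isograft, at 1494 against 1765 CPM.

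Lysosome genes rose in part. Of 21 such genes 6 rose and none fell with all cells in and 9 without the fibroblast-marker-rich droplets, among them Psap, which encodes the saposin precursor (log2 change 0.63), and the protease gene Ctsk (1.73). The count was 0, 0 and 14 without allograft 1, 2 and 3 with all cells in, and 7, 1 and 14 without those droplets. Of 17 growth factor and resolution genes 4 rose without those droplets, namely Gdf15 by 0.95, Pdgfc by 0.89, Inhba by 0.82 and Arg1 by 0.59, and 3 did with all cells in. Of 13 chemokine genes 4 rose, namely Ccl6 by 1.25, Cxcl14 by 0.75, Ccl8 by 0.59 and Ccl5 by 0.36, and 2 did with all cells in. Leaving out allograft 1, 2 or 3 besides the droplets gave 4, 0 and 4 growth factor genes and 3, 1 and 4 chemokine genes, while 4 chemokine genes fell without allograft 3 and 1 growth factor gene without allograft 1. Inhba was higher in 2 of 3 libraries and the other 3 growth factor genes in 3 of 3. Among genes outside the lists, the coagulation factor gene F7 rose by 1.47 and the interleukin 7 receptor gene Il7r by 1.20.

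A minority of the genes of blood monocytes fell. Of 18 monocyte-derived cell genes 4 fell in each analysis, and 1 (F10) rose without the fibroblast-marker-rich droplets, with a median log2 change of -0.08 in both. Leaving out allograft 1, 2 or 3 gave 0, 1 and 5 that fell with all cells in and 6, 0 and 5 without those droplets. Ccr2 was at 63.1, 54.7 and 66.3 CPM in gated cells and 118, 82.2 and 97.4 CPM in the others of allografts 1, 2 and 3. The classes did not overlap and the log2 change was -0.67 (SE 0.0953, edgeR adjusted p = 0.00343). Plac8 fell by 0.57 and Ms4a4c by 0.53 on the log2 scale. Timd4, a phosphatidylserine receptor of long-lived resident macrophages, was at 3.02, 2.45 and 15.7 CPM in gated cells and 14.1, 9.22 and 50.9 CPM in the others, a log2 change of -1.85. Of 10 class II genes none rose or fell, with H2-Aa at a log2 change of -0.03 (SE 0.0632) and Cd74 at 0.08 (SE 0.062). Vsir was at 121, 103 and 54.2 CPM in gated cells and 123, 120 and 78.0 CPM in the others, a log2 change of -0.13 (SE 0.0865) that did not pass.

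The comparison was repeated against only those other macrophages that also lacked resident genes, without the fibroblast-marker-rich droplets, a setting chosen after seeing the data. It called 162 of 10409 genes higher (1.56%) and 97 lower (0.932%). Of the lipid-associated genes 17 of 25 rose, or 12 of 25 with all cells in, with Fabp5 at a log2 change of 2.13 and Trem2 at 1.02. Of 18 resident cardiac macrophage genes 6 rose here, among them Mrc1 at 0.80, Pf4 at 0.83 and Igf1 at 1.44, and 1, Timd4, fell. With all cells in, none of 19 rose in edgeR and 1 fell. Of 18 monocyte-derived cell genes 6 fell, or 1 of 18 with all cells in. This comparison called 32 genes with all cells in.

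Whether the effect of the gate differed between groups was tested as the interaction of class and group in edgeR, with the library as a block. With all cells in, 16 of 13493 genes had a higher effect in the allografts (0.119%) and 9 a lower one (0.0667%), and without the fibroblast-marker-rich droplets 37 of 11936 (0.31%) and 26 (0.218%), with 24 genes in both. Of 25 lipid-associated genes 8 and 12 had a higher effect in the allografts and none a lower one. Leaving out allograft 1, 2 or 3 gave 1, 5 and 16 of them with all cells in and 15, 8 and 15 without those droplets. For Fabp5 the effect differed by 1.31 on the log2 scale (SE 0.152, edgeR adjusted p = 0.00422) with all cells in and for Trem2 by 1.01 (SE 0.151, edgeR adjusted p = 0.0198). H2-Aa and Cd74 ran the other way, at -0.99 and -0.85.

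These differences depended on which macrophages the gated cells were set against. Compared only with cells that lacked resident genes, no gene passed with all cells in (664 at an unadjusted p under 0.05), and 23 of 12005 passed without the fibroblast-marker-rich droplets, 17 of them higher (0.142%) and 6 lower (0.05%). Fabp5 then had a difference of -0.27 (SE 0.317, edgeR adjusted p = 0.903), and H2-Aa and Cd74 turned to 0.77 and 0.69. Of the lipid-associated genes 3 of 25 had a higher effect in the allografts, Apoe at 1.76, Syngr1 at 1.54 and Cd63 at 0.97. Areg had a lower one at -5.17, where it was -3.56 with all cells and all other macrophages in. The count with all macrophages as comparator also moved with the libraries, at 2, 18 and 247 without allograft 1, 2 and 3.

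Between the groups, gated macrophages of the allografts were set against those of the isograft. The lone isograft library is assumed to vary like the allografts. With all cells in, 17 of 11969 genes were higher in the allografts (0.142%) and none was lower, where DESeq2 called 404 higher and 39 lower. Without the fibroblast-marker-rich droplets 503 of 11203 rose (4.49%) and 369 fell (3.29%), the 17 among them. With all cells the count was 0, 0 and 5112 without allograft 1, 2 and 3 (722, 839 and 5849 at an unadjusted p under 0.05), and without those droplets 128, 903 and 3744. The list counts below are without the fibroblast-marker-rich droplets.

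Antigen presentation and interferon genes were higher in the allografts. All 9 class II genes measured rose, with a median log2 change of 3.47 against 0.03 over all genes, and 6, 9 and 9 did so without allograft 1, 2 and 3. None of the 9 passed in edgeR with all cells in, at a median of 4.02, and 2 of 20 interferon response genes did. H2-Aa was at 3638, 2863 and 2003 CPM in allografts 1, 2 and 3 against 253 CPM in the isograft, a log2 change of 3.47 (SE 0.387, edgeR adjusted p = 0.00321). Expression of Ciita, the transactivator that class II genes need, was at 161, 135 and 83.2 CPM against 5.17 CPM. Of 20 interferon response genes 14 rose and none fell, and 11, 17 and 15 rose without allograft 1, 2 and 3, with 2 that fell without allograft 3. Among them was the guanylate-binding protein gene Gbp2, at 347, 372 and 336 CPM against 12.6 CPM. H2-Aa, Ciita and Gbp2 were each lower in the isograft than in every allograft. Cd274, which encodes PD-L1, rose by 4.74 (SE 0.355) on the log2 scale. The gap in these lists was not particular to gated cells. Summed class II genes were at 30391, 29426 and 16891 CPM in gated cells, against 2277 CPM in the isograft. In the other non-dividing macrophages they were at 31330, 30307 and 17144 CPM against 1108 CPM. Summed interferon response genes were at 5128, 4791 and 6568 CPM against 890 CPM in gated cells. The others had 5492, 5056 and 8335 CPM against 868 CPM.

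The 17 genes called with all cells in included Cxcl9, a T cell chemokine induced by interferon gamma, at 3166, 2633 and 5684 CPM in the allografts against 4.07 CPM in the isograft without the fibroblast-marker-rich droplets. Ccl5 was at 2014, 2350 and 2517 CPM against 61.4 CPM, a log2 change of 5.23 (SE 0.37). Ubd, a ubiquitin-like protein gene, had no UMI in the isograft's gated cells. Taking 3 counts over those cells as the floor, it was at least 260-fold higher in the allografts with all cells in, and at least 134-fold without the fibroblast-marker-rich droplets.

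A minority of lipid-associated genes fell in the allografts, Trem2 among them. Of 25 lipid-associated genes 5 fell and 1 rose, with Trem2 at 375, 326 and 464 CPM in the allografts against 1494 CPM in the isograft, a log2 change of -1.94 (SE 0.27, edgeR adjusted p = 0.00718). Syngr1, Fabp4, Ctsl and Ctsd fell by 1.79, 1.89, 1.56 and 1.02 and Itgax rose by 2.50, while Fabp5 did not pass at -0.18 (SE 0.231). None of the 25 passed in edgeR with all cells in, at a median of -0.37, nor did any resident, cell cycle, glycolysis or immediate-early gene. Without allograft 1 none of these 25 genes passed, and without allograft 3 17 fell and 3 rose. Spp1, a gate gene, was at 769, 1077 and 1362 CPM against 5751 CPM, and Gpnmb at 297, 217 and 84.4 CPM against 267 CPM. Of 19 resident cardiac macrophage genes 8 fell and none rose. Leaving out allograft 1, 2 or 3 gave 2, 8 and 15 (of 19, 19 and 18) that fell and 0, 1 and 1 that rose. Cells with Folr2, Lyve1 or Cbr2 UMIs were gated out of both groups by raw UMIs, which excludes less at lower depth. Gated cells had a median of 5222 UMIs in the isograft against 15678, 12056.5 and 10811 in allografts 1, 2 and 3. The part of depth in this contrast was not tested. Pf4, the platelet factor 4 gene, was at 37.0, 18.6 and 149 CPM against 979 CPM and Gas6 at 3.40, 2.81 and 8.44 CPM against 106 CPM.

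Of 15 inflammatory genes 4 rose and 3 fell, and of 17 growth factor and resolution genes 4 rose and 3 fell. Leaving out allograft 1, 2 or 3 gave 1, 5 and 7 inflammatory genes that rose and 0, 3 and 5 that fell, and 0, 6 and 6 growth factor genes that rose and 2, 3 and 5 that fell. None of either list passed in edgeR with all cells in. The prostaglandin synthase gene Ptgs2 was at 292, 250 and 104 CPM in the allografts against 28.5 CPM, and Il1b at 378, 474 and 242 CPM against 99.8 CPM. The neutrophil chemokine Cxcl1 fell by 2.98 and Cxcl2 by 1.72 on the log2 scale, with Cxcl2 at 1309, 1332 and 2521 CPM against 5733 CPM. Areg was at 0.378, 2.10 and 1.21 CPM in the allografts, from at most 6 UMIs a library, against 51.4 CPM, and Gdf15 at 85.0, 85.9 and 50.6 CPM against 475 CPM. Arg1 was at 286, 286 and 316 CPM against 94.6 CPM, and Inhba, which encodes a subunit of activin, rose by 6.09 (SE 1.25). Of 21 glycolysis and hypoxia genes 8 rose and none fell, with 1, 10 and 19 that rose without allograft 1, 2 and 3. Of 19 cell cycle genes 10 fell, and 3, 11 and 15 fell in those same settings. Dividing cells were also gated out by raw UMIs, which excludes less in the shallower isograft cells. Of 19 immediate-early and heat shock genes 8 fell, Fos by 1.24, and 0, 6 and 14 did in those settings. Vsir did not pass, at -0.27 (SE 0.347).

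Markers of other cells moved with this contrast. The 9 T and NK cell markers, 3 of them limited by the gate, summed to 66.5, 107 and 22.9 CPM in gated cells of allografts 1, 2 and 3 and 0.370 CPM in the isograft, and 4 of 8 rose. Their part in the result was not tested. The fibroblast markers, after the droplets above 0.3% were left out, still summed to 18.5, 16.1 and 301 CPM in the allografts and 388 CPM in the isograft, and the median depth of gated cells was lower in the isograft, as given above.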

How the data were processed

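The authors' deposited matrices hold UMI counts per gene and barcode for 4 libraries of the 10x 3' v3.1 kit, made with Cell Ranger 3.1.0 on mm10 per the submitters' processing notes, while the deposited matrix headers give version 6.1.0. The sources used here do not say how intronic, multimapped and antisense reads were treated. Of 34097 genes, 32403 were found in GENCODE M21. Droplets with at least 500 UMIs, 300 genes and at most 20% mitochondrial UMIs were kept, and doublets were scored with Scrublet (scanpy 1.11.5, Python 3.11.15) at an assumed rate of 0.8% per 1000 barcodes and removed only in an alternative.

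Counts were summed per library and class. Sums were tested with edgeR 4.0.16 (quasi-likelihood, R 4.3.3), with Benjamini-Hochberg adjustment over all genes tested and 0.05 as the threshold, and with DESeq2 1.42.0 as an alternative. Standard errors are the log2 change over the root of the F statistic, an approximation. The share of cells was tested with an exact permutation test (scipy 1.17.1). The isograft classes, 1 library, were compared by CPM with a pseudocount of 1, for genes at 20 CPM or more in either class, and by a 2-fold limit. Gate genes were left out of calls between classes.

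Members and the 35 gene lists were chosen with earlier results of these data known. Genes named are the list members, the 15 with the highest and lowest ratios in the isograft at 50 CPM or more, and the 8 leading genes each way per test. The extremes per isograft class, the fibroblast-marker limit of 0.3% and the settings built on it were added after values were seen. Data were also simulated with 200 changed genes. In them the allograft test recovered 99% of changes of 2 on the log2 scale and 81% of changes of 1. The test between groups recovered 96% and 47%, and the test of the difference 83% and 13%. False calls numbered 6, 9 and 4 in these tests. The rates hold for the simulated data and can overstate recovery in the real libraries. With all cells in, none of 9 class II genes passed between groups in edgeR, at a median log2 change of 4.02.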

Additional observations from a re-analysis of the deposited data

Results flagged for a closer look

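For 25 genes the interaction test of edgeR called a difference between groups in the effect of the gate, with all cells in. That effect is gated over other non-dividing macrophages, and each value is the log2 effect in the allografts minus that in the isograft. The gate itself acts on the isograft side, which carries no test of its own. The comparators also differed in make-up. The 1287 isograft others held 754 cells with both gene sets and 324 with resident genes only. Cells with neither set made up 598 of 679, 964 of 1104 and 204 of 335 others in allografts 1, 2 and 3. Against only macrophages free of Folr2, Lyve1 and Cbr2, no gene passed with all cells in. The direction then turned for some of the 25, as given with the dependence on the processing. How much of each difference came from the comparator was not tested.

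The difference was positive for 16 genes. Among lipid-associated genes it was 2.59 for Atp6v0d2, 2.49 for Mmp12, 1.85 for Syngr1 and 1.31 for Fabp5. It was 1.16 for Ctsl, 1.09 for Pld3, 1.01 for Trem2 and 0.97 for Vat1 of the same list. Among genes of resident macrophages and secreted factors it was 2.83 for the neuropeptide gene Npy, 2.18 for Fcrls, 1.57 for Ccl8, 1.37 for F13a1, 1.13 for Stab1 and 0.92 for the protease inhibitor gene Timp2. The remaining genes were Nxpe5 at 1.83 and Pmp22 at 1.19. Fcrls rested on allograft 3, with 44 UMIs in its gated cells and 0 in those of allografts 1 and 2, and the value was -1.79 without that library.

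The difference was negative for 9 genes. It was -3.56 for Areg, -1.78 for the lubricin gene Prg4, -1.36 for the lectin receptor gene Clec4e and -1.08 for Osm. For class II genes it was -1.18 for H2-Eb1, -0.99 for H2-Aa and -0.85 for Cd74, and for monocyte genes -1.15 for Ccr2 and -0.99 for Plac8.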

How the results depend on the processing

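The share of gated cells in the isograft, 32.5%, was 35.6% with a minimum of 2 UMIs, 26.3% with 6 and 11.9% with both genes required. The difference between groups kept its sign in every alternative, from -25.7 to -5.25 points. The exact permutation test gave p = 0.5 with a minimum of 2 UMIs and with Scrublet doublets removed, and p = 0.25 in the other settings. The 23 isograft genes past 2-fold became 47 with Scrublet doublets removed, 57 with the gate on thinned counts, 89 with both genes required, 43 without the fibroblast-marker-rich droplets, 48 at the stricter 0.1% limit, 250 against macrophages free of Folr2, Lyve1 and Cbr2, 13 with a pseudocount of 5 and 10 at a minimum of 50 CPM. The 92 allograft genes became 199 with a minimum of 6, 54 without Scrublet doublets, 292 on thinned counts (2 allografts), 177 with both genes required, 168 and 261 at the fibroblast-marker limits of 0.3% and 0.1%, 32 against macrophages free of resident genes and 259 with the 0.3% limit as well, 309 without an expression filter, 11 in all 4 libraries and 0 with no replicate block (edgeR, 216 at an unadjusted p under 0.05). Leaving out 1 allograft gave 32 to 327, and 179, 22 and 335 without the fibroblast-marker-rich droplets and allograft 1, 2 or 3.

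The 17 genes between groups became 26 with a minimum of 2, 30 with 6, 0 without Scrublet doublets (edgeR, 1228 at an unadjusted p under 0.05), 1394 on thinned counts (3 libraries), 303 with both genes required, 872 and 911 at the fibroblast-marker limits, 443 with DESeq2 and 63 without an expression filter. Leaving out 1 allograft gave 0 to 5112, and 128, 903 and 3744 without the fibroblast-marker-rich droplets. The 25 genes of the interaction became 48 with a minimum of 2, 70 with 6, 75 on thinned counts (3 libraries), 80 with both genes required, 63 and 102 at the fibroblast-marker limits, 0 against macrophages free of resident genes (edgeR, 664 at an unadjusted p under 0.05), 121 without an expression filter and 0 with no replicate block (93 at an unadjusted p under 0.05, DESeq2 with the block 25). Leaving out 1 allograft gave 2 to 247, and 29 to 285 without the fibroblast-marker-rich droplets. The causes were not tested.

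Directions turned for single genes. With both genes required, the interaction was 1.06 for Ccr2, 1.01 for Cd74, 0.62 for H2-Aa and 0.63 for H2-Eb1, and in the isograft the log2 ratio was 0.099 for Ccl8 and -0.92 for Saa3. Against macrophages free of resident genes, the interaction was 0.019 for Ccr2, 1.11 for Cd74, 1.21 for H2-Aa, 0.85 for H2-Eb1, -0.28 for Ctsl, -0.19 for Fabp5 and -1.06 for Npy, and the isograft ratio 0.039 for Cela1 and 0.29 for Myl9. With the fibroblast-marker limit as well, it was 0.69 for Cd74, 0.77 for H2-Aa, 0.065 for H2-Eb1, -0.48 for Ctsl, -0.27 for Fabp5 and -0.75 for Npy. On thinned counts it was 0.027 for Cd74, 0.57 for H2-Aa, 0.38 for Prg4 and -0.89 for Fcrls, with a minimum of 6 it was 0.040 for H2-Aa, and for Fcrls it was between -1.79 and 2.21 when 1 allograft was left out, -1.79 without allograft 3 and -1.59 with the fibroblast-marker limit as well.

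No paired analysis was possible because the groups share only replicate number 2. The library block above pairs the classes of 1 library. Gated cells were fewest in allograft 3, with 71 left after the fibroblast-marker limit, and the isograft is 1 library, so its contrasts have no replicate check.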
